A study of Triticum aestivum with 6 samples.

Results

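A stretch of 66 neighbouring genes on wheat chromosome 6B, from TraesCS6B02G077900 to TraesCS6B02G088800 in the listed order, is described here gene by gene and library by library. The stretch was chosen by the fold change between the groups, as a window in which many genes had higher counts in the tatfl1-5 mutant than in Fielder, so the differences between the groups are given as a description and were not tested as a property of the stretch. The deposited table listed 70043 genes, and 20 listed genes on either side of the stretch serve as context. Libraries were made from axillary buds of the wheat cultivar Fielder (3 replicates, unedited) and of the triple mutant in the same cultivar (3 replicates), which the sample labels call tfl1-5 and the study tatfl1-5, with the genotype aabbdd. In this mutant the A, B and D copies of TaTFL1-5 all carry null alleles made with CRISPR/Cas9, by a deletion in the A copy, a deletion in the B copy and an insertion in the D copy. The study selected transgene-free plants and describes one aabbdd line, so the mutant group is 1 line and the effect of the edit cannot be told apart from anything else that is particular to this line. Its results text and its methods give different seedling ages for the buds, and its methods name another library kit than the sample labels do.

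Axillary buds stand in the leaf axils and grow out into the tillers of the wheat plant, and TFL1 proteins belong to the phosphatidylethanolamine-binding family, which acts in flowering and shoot architecture. Common wheat carries an A, a B and a D subgenome, with similar copies of most genes on each. Genes of one family often stand next to each other in plant genomes as tandem copies, and such copies can be so alike that reads are shared among them when they are counted. The identifiers used here name the chromosome and give the order along it, but 0 of the 66 were found in the reference gene table at hand, so that no gene name, role, base position or sequence is given for them. For the same reason the tissue label could not be checked against marker genes of axillary buds.

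Read counts totalled between 13320461 and 17174131 per library. Of the edited genes, TaTFL1-5A (TraesCS5A02G128600) gave 9, 14 and 21 counts across Fielder replicates 1, 2 and 3, against 1, 7 and 5 across the mutant replicates, and TaTFL1-5B (TraesCS5B02G127600) gave 46, 44 and 31 against 20, 19 and 23. Neither was called, and TaTFL1-5D is not analysed here. A gene was called when edgeR's quasi-likelihood test gave a Benjamini-Hochberg adjusted p-value under 0.05 over all 52228 tested genes and the log2 fold change was above 1 in size. Levels are given as CPM, which scales counts to the TMM-normalized library size, or as the deposited FPKM. The latter divides by gene length and by the library total, without the TMM factor. Standard errors (SE) are on the log2 scale. Because whole buds were sequenced, fewer cells of a type and less RNA per cell cannot be told apart. Nothing in the labels says that the replicates came from separate plants, whereas the series' design text calls them biological repeats.

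Fielder replicate 3 stood apart from the other Fielder libraries in this stretch, and to a lesser extent in short genes over the whole table. It stood apart as well in some runs of short genes elsewhere, described under the other observations. In the median tested gene up to 900 bases it was at 2.06 times their mean in the stretch and 2.51 times in a run on 6A. Over the 51242 tested genes with counts in each Fielder library, the median absolute log2 ratio of a library to the mean of the other Fielder libraries was 0.35 for replicate 1, 0.28 for replicate 2 and 0.33 for replicate 3. Over all tested genes up to 900 bases, Fielder replicate 3 was above both other Fielder libraries in 49.8%, at 1.18 times their mean in the median gene. Without it 5054 genes of the whole table were called higher, against 3744 without Fielder replicate 1 and 3760 without Fielder replicate 2. In the 16 short genes of the stretch that were called higher (up to 900 bases, a limit set after the values were seen), the median log2 ratio of Fielder replicate 3 to the others was 1.04, with a range from 0.32 to 1.76. The log2 fold change without this library is therefore given beside that of each gene called.

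Of the 66 genes, 50 had enough counts to be tested, 19 of them were called higher in the mutant and 2 lower, and 29 were not called. Over all tested genes, 7.98% were called higher and 5.75% lower. The 50 tested genes had a median log2 fold change of 0.81, whereas that of all tested genes was 0.00, and 36 of the 50 lay above 0. Without Fielder replicate 3 the median was 1.01 and 24 genes were called higher, with 9.42% of all tested genes. Without Fielder replicate 2, 11 were called higher, with 7.00% of all tested genes. When edgeR tested against a 2-fold threshold in place of no change, 2 were called higher, TraesCS6B02G081900 and TraesCS6B02G088800, with 1.73% of all tested genes. All mutant libraries lay above all Fielder libraries in 25 of the 50 genes and below them in 8, where the shares over all tested genes were 22.2% and 21.0%.

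**Figure D1:**
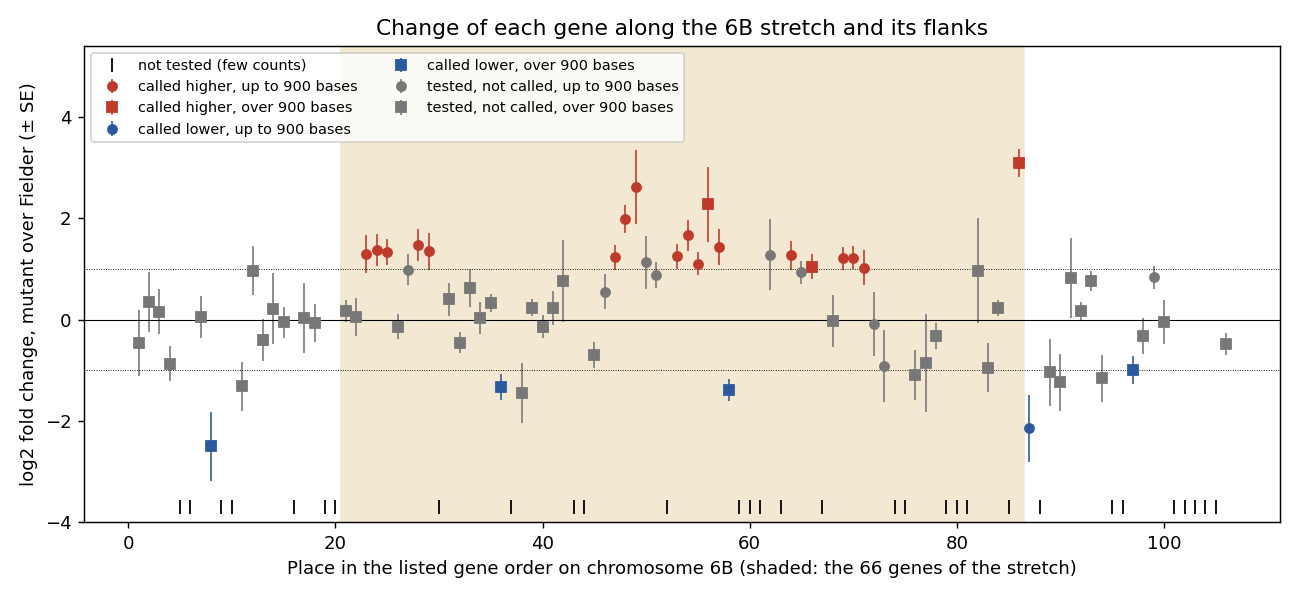
The log2 fold change (mutant over Fielder, with its standard error) of each tested gene is plotted against its place in the listed order on 6B, with the 66 genes of the stretch shaded, ticks for genes that were not tested, and dotted lines at the 2-fold limits. The 19 genes called higher sit in 3 groups and at the last place of the stretch, and 25 of the 40 flanking genes were tested, with 0 called higher. The borders of the stretch were set with these values in view.

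The genes called higher did not fill the stretch evenly. They fell into 3 groups, whose limits were read from the values themselves. From TraesCS6B02G078200 to TraesCS6B02G079200, 5 of 7 listed genes (7 tested) were called higher. From TraesCS6B02G081800 to TraesCS6B02G082800 it was 8 of 11 (10 tested), and from TraesCS6B02G084100 to TraesCS6B02G084900 it was 5 of 8 (7 tested). The remaining one was TraesCS6B02G088800, the last gene of the stretch. Beside these counts, 7.98% of all tested genes and 12.6% of those up to 900 bases were called higher. Between the groups, 13 of the 17 genes from TraesCS6B02G079300 to TraesCS6B02G081600 were tested, with 0 called higher and 1 lower. Of the 6 genes from TraesCS6B02G082900 to TraesCS6B02G083800 only 2 were tested, with 0 called higher and 1 lower. With so few genes tested, 0 calls are near the 7.98% called higher over all tested genes. In the 14 genes from TraesCS6B02G085000 to TraesCS6B02G088700, 0 were called in either direction and the median log2 fold change of the 8 tested ones was -0.59.

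The group from TraesCS6B02G078200 to TraesCS6B02G079200 held mostly short and well counted genes. TraesCS6B02G078200 had 108, 261 and 639 counts across Fielder replicates 1, 2 and 3, against 1021, 633 and 744 across mutant replicates 1, 2 and 3. Its level was 20.6 ± 15.1 CPM in Fielder and 50.7 ± 10.8 CPM in the mutant (SD, n = 3 each), giving a log2 fold change of 1.29 (SE 0.38, and 2.03 without Fielder replicate 3). Fielder replicate 3 came close to the lowest mutant library after scaling, and the call held in 2 of 6 fits with a library left out: it was lost without Fielder replicate 1 or 2 and without mutant replicate 1 or 3. TraesCS6B02G078400 had 163, 194 and 601 counts across Fielder, against 923, 717 and 786 across the mutants, with a log2 fold change of 1.37 (SE 0.32, and 2.08 without Fielder replicate 3). TraesCS6B02G078600 had 58, 142 and 143 counts across Fielder, against 327, 278 and 256 across the mutants, with a log2 fold change of 1.33 (SE 0.26, and 1.44 without Fielder replicate 3). In TraesCS6B02G078600 Fielder replicate 2 was the highest Fielder library after scaling, whereas in TraesCS6B02G078400 it was Fielder replicate 3.

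TraesCS6B02G079000 rose most within this group, with 150, 305 and 674 counts across Fielder, against 1201, 915 and 944 across the mutants. Its level went from 23.3 ± 14.5 to 64.8 ± 7.47 CPM (SD, n = 3 each), giving a log2 fold change of 1.47 (SE 0.32, and 2.08 without Fielder replicate 3), and it was called whichever library was left out, as were TraesCS6B02G078400 and TraesCS6B02G078600. TraesCS6B02G079200 had 147, 189 and 665 counts across Fielder, against 1007, 739 and 730 across the mutants, with a log2 fold change of 1.35 (SE 0.36, and 2.19 without Fielder replicate 3), and its call was lost without Fielder replicate 2 and without mutant replicate 1. Its level in Fielder replicate 3 was 3.40 times the mean of the other Fielder libraries, and the mutant mean was 1.35 times the level in Fielder replicate 3. The remaining members of the group were not called. TraesCS6B02G078900, which falls outside the rule for named genes and was picked for its value just under the 2-fold limit, had 223, 276 and 794 counts across Fielder, against 945, 777 and 774 across the mutants (log2 fold change 0.98, SE 0.31, and 1.64 without Fielder replicate 3). TraesCS6B02G078800, with an implied length of 1909 bases the only long gene here, had 83, 154 and 141 counts across Fielder, against 128, 117 and 100 across the mutants, and its groups overlapped.

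In the group from TraesCS6B02G081800 to TraesCS6B02G082800, each of the 10 tested genes had a log2 fold change above 0, and the median was 1.34. TraesCS6B02G081800 was the most abundant, with 380, 326 and 863 counts across Fielder, against 1389, 1072 and 1187 across the mutants. Its level went from 32.9 ± 15.4 to 77.4 ± 7.82 CPM (SD, n = 3 each), giving a log2 fold change of 1.23 (SE 0.25, and 1.67 without Fielder replicate 3), which was 0.98 and no longer called without Fielder replicate 2. TraesCS6B02G081900 had 82, 56 and 168 counts across Fielder, against 450, 361 and 399 across the mutants, so that every mutant library had more than the Fielder libraries by a wide margin. Its level went from 6.45 ± 3.12 to 25.7 ± 2.15 CPM (SD, n = 3 each), giving a log2 fold change of 1.99 (SE 0.28, and 2.43 without Fielder replicate 3) that was called whichever library was left out. TraesCS6B02G082000, its listed neighbour, had only 6, 1 and 6 counts across Fielder, against 30, 24 and 29 across the mutants. Its fitted log2 fold change of 2.61 had an SE of 0.73 and was 2.81 without Fielder replicate 3, and the call was lost without Fielder replicate 2 and without mutant replicate 1 or 3.

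In the next called genes of this group Fielder replicate 3 was the highest Fielder library. TraesCS6B02G082400 had 113, 124 and 271 counts across Fielder, against 463, 383 and 353 across the mutants (log2 fold change 1.25, SE 0.25, and 1.65 without Fielder replicate 3). TraesCS6B02G082500 had 117, 134 and 362 counts across Fielder, against 809, 494 and 610 across the mutants (log2 fold change 1.66, SE 0.30, and 2.24 without Fielder replicate 3). In both, Fielder replicate 3 lay between the other Fielder libraries and all mutant libraries, and both were called whichever library was left out. TraesCS6B02G082600 had 349, 396 and 826 counts across Fielder, against 1236, 1052 and 1060 across the mutants, with a log2 fold change of 1.10 (SE 0.22, and 1.48 without Fielder replicate 3), which was 0.95 without Fielder replicate 1 or 2 and then not called. TraesCS6B02G082800 had 80, 157 and 399 counts across Fielder, against 703, 516 and 465 across the mutants, with a log2 fold change of 1.44 (SE 0.35, and 2.15 without Fielder replicate 3). It was called whichever library was left out, although DESeq2, which called 17 genes of the stretch and 7.27% of all genes it tested higher, did not call it. DESeq2 also did not call TraesCS6B02G078200 and TraesCS6B02G079200 of the first group.

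TraesCS6B02G082700 differed from these in being long, with an implied 2043 bases, and sparse. It had 3, 2 and 11 counts across Fielder, against 17, 25 and 35 across the mutants, with a log2 fold change of 2.27 (SE 0.75, and 3.20 without Fielder replicate 3). The call held only in the fit without Fielder replicate 3, so that leaving out any other library ended it. Of the group's members that were not called, picked for mention after their values were seen, TraesCS6B02G082100 had 7, 34 and 72 counts across Fielder, against 105, 56 and 80 across the mutants and its groups overlapped. TraesCS6B02G082200 had 254, 267 and 652 across Fielder, against 865, 638 and 630 across the mutants, with a log2 fold change of 0.88 (SE 0.26). TraesCS6B02G082300, with 2, 2 and 4 counts across Fielder, against 28, 8 and 19 across the mutants, did not pass the filter on low counts. It was called higher by DESeq2 and in 1 of 6 edgeR fits with a library left out, but not in edgeR without the filter.

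The group from TraesCS6B02G084100 to TraesCS6B02G084900 held the gene with the highest level per length of the stretch. TraesCS6B02G084100 had 219, 236 and 676 counts across Fielder, against 1028, 774 and 868 across the mutants. Its FPKM was 76.2 in Fielder and 177 in the mutant (means of 3 replicates each), its mean over all libraries was in the top 1.35% of tested genes, and its log2 fold change was 1.26 (SE 0.29, and 1.86 without Fielder replicate 3). TraesCS6B02G084700 had 233, 225 and 517 counts across Fielder, against 794, 677 and 759 across the mutants, with 50.6 and 112 FPKM on average and a log2 fold change of 1.20 (SE 0.23, and 1.59 without Fielder replicate 3). TraesCS6B02G084800 had 206, 270 and 526 counts across Fielder, against 869, 748 and 696 across the mutants, with 45.5 and 102 FPKM on average and a log2 fold change of 1.22 (SE 0.23, and 1.60 without Fielder replicate 3). All 3 were called whichever library was left out, and in all 3 Fielder replicate 3 lay above the other Fielder libraries and below every mutant library.

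TraesCS6B02G084400 and TraesCS6B02G084900 were called with values close to the 2-fold limit. TraesCS6B02G084400 had 105, 137 and 204 counts across Fielder, against 281, 416 and 221 across the mutants, with a log2 fold change of 1.04 (SE 0.25, and 1.24 without Fielder replicate 3). Here mutant replicate 2 was the highest library, and the call was lost without it (0.75), and without Fielder replicate 1 (0.91) or 2 (0.99). TraesCS6B02G084900 had 42, 139 and 208 counts across Fielder, against 298, 216 and 263 across the mutants, with a log2 fold change of 1.03 (SE 0.34). It was called only in the fit without Fielder replicate 3, where its log2 fold change was 1.44, and without Fielder replicate 1 it was 0.64. TraesCS6B02G084300, named after its values were seen, had 313, 359 and 773 counts across Fielder, against 1040, 863 and 824 across the mutants, and its log2 fold change of 0.93 (SE 0.23) was under the limit. TraesCS6B02G084600 overlapped between the groups, with 24, 26 and 24 counts across Fielder, against 23, 33 and 18 across the mutants.

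**Figure D2:**
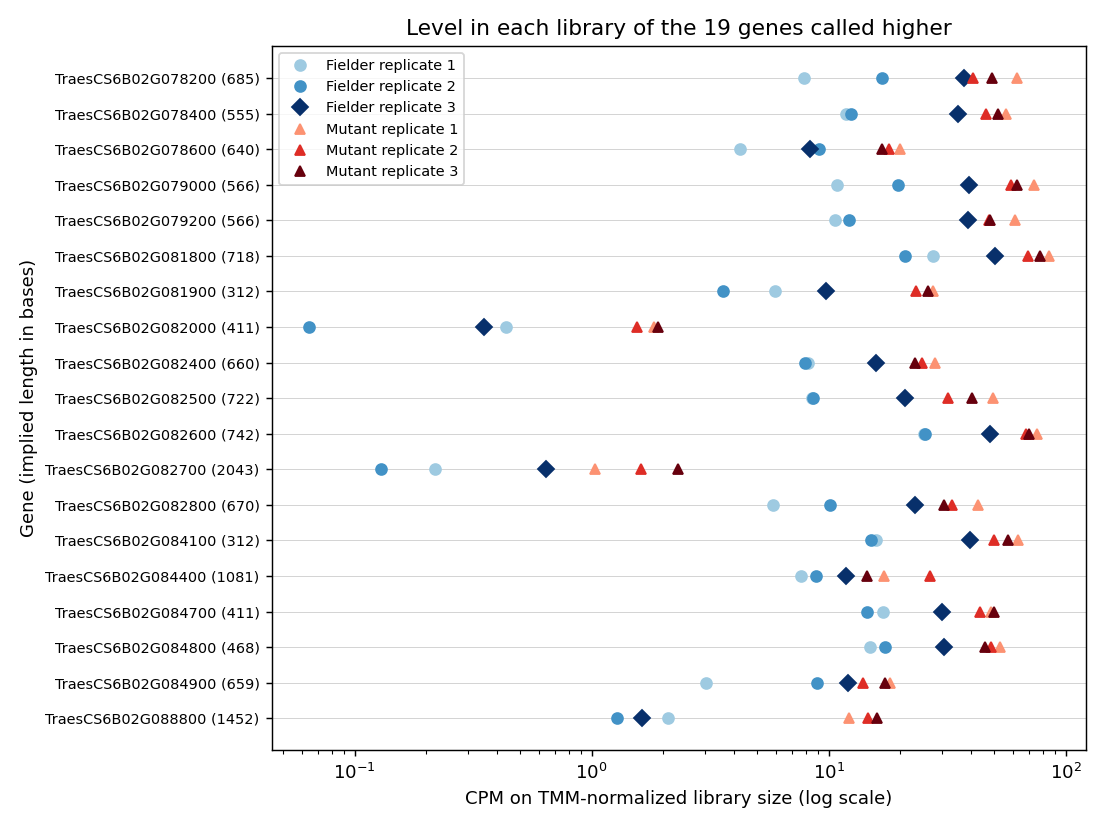
Each row is one of the 19 genes called higher, with its implied length in bases, and each symbol is its CPM in one library on a log scale (circles and diamonds Fielder, triangles mutant). In 16 of the 19 rows the diamond of Fielder replicate 3 lies above the other Fielder libraries. In all 19 rows every mutant library lies above every Fielder library, which goes with the call itself.

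Across the 19 genes called higher, the order of the libraries was much the same from gene to gene. In all 19 every mutant library lay above every Fielder library, as in 4129 of the 4170 genes called higher over the whole table. That part of the order therefore goes with the call itself. Fielder replicate 3 lay above the other Fielder libraries in 16 of the 19. This was 84.2% of these 19, beside 54.2% of all genes called higher, 70.2% of all genes called higher of up to 900 bases and 34.6% of all tested genes. The level in Fielder replicate 3 was 2.05 times the mean of Fielder replicates 1 and 2 in the median gene, and the mutant mean was 4.12 times that mean and 1.60 times Fielder replicate 3. Over all genes called higher of up to 900 bases the level in Fielder replicate 3 was 1.60 times the mean of the other Fielder libraries in the median gene. A high Fielder replicate 3 was therefore not particular to the stretch. The SD was 57% of the mean in Fielder and 11% in the mutant for the median gene of the 19. Their summed level was 188, 213 and 454 CPM in Fielder replicates 1, 2 and 3 and 796, 662 and 702 CPM in mutant replicates 1, 2 and 3. Mutant replicate 1 was the highest mutant library in 14 of the 19 genes, among them 14 of the 16 short ones. Over the whole table it was the highest in 1249 of the 4170 genes called higher and in 284 of the 842 of up to 900 bases. In the 6A run described under the other observations it was the highest in all 13 tested genes up to 900 bases. Without Fielder replicate 3 all 19 were called, with a median log2 fold change of 2.03 in place of 1.33. So were 3760 of the 4170 genes called higher over the whole table and 800 of the 842 of up to 900 bases. In these 842 the median log2 fold change was 1.84 without that library, in place of 1.52. Keeping the call without Fielder replicate 3 was therefore not particular to the stretch.

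The last gene, TraesCS6B02G088800, showed another pattern. It had 29, 20 and 28 counts across Fielder, against 199, 227 and 244 across the mutants, and its level went from 1.67 ± 0.411 to 14.3 ± 1.99 CPM (SD, n = 3 each). The log2 fold change of 3.09 (SE 0.28, and 3.07 without Fielder replicate 3) was the largest of the stretch and lay between 2.93 and 3.28 whichever library was left out. Fielder replicate 3 was at 0.963 times the mean of the other Fielder libraries. It is separated from the nearest other gene called higher, TraesCS6B02G084900, by 14 listed genes. The next listed gene, TraesCS6B02G088900, lies outside the stretch and moved in the opposite direction, with 17, 44 and 29 counts across Fielder, against 6, 4 and 10 across the mutants.

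The genes called lower were TraesCS6B02G080000 and TraesCS6B02G082900, one in each of the intervals between the groups. TraesCS6B02G080000 had 156, 247 and 226 counts across Fielder, against 66, 81 and 104 across the mutants. Its level fell from 13.5 ± 2.29 to 5.37 ± 1.42 CPM (SD, n = 3 each), giving a log2 fold change of -1.33 (SE 0.25, and -1.35 without Fielder replicate 3). TraesCS6B02G082900 had 278, 296 and 393 counts across Fielder, against 152, 136 and 87 across the mutants, and fell from 20.7 ± 1.99 to 7.93 ± 1.92 CPM (SD, n = 3 each), giving a log2 fold change of -1.38 (SE 0.22, and -1.31 without Fielder replicate 3). It stands directly after TraesCS6B02G082800, which was called higher. Both were called whichever library was left out, and in neither did Fielder replicate 3 stand apart, at 0.969 and 1.17 times the mean of the other Fielder libraries.

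The first gene of the stretch, TraesCS6B02G077900, was not called. It had 278, 352 and 549 counts across Fielder, against 519, 326 and 478 across the mutants, with a log2 fold change of 0.17 (SE 0.21) and overlapping groups. Neither was TraesCS6B02G088500, which had the highest mean CPM of the stretch, ahead of TraesCS6B02G081800 and TraesCS6B02G082600, at 71.6 ± 10.5 CPM in Fielder and 83.6 ± 3.43 CPM in the mutant (SD, n = 3 each). Its counts were 843, 1112 and 1409 across Fielder, against 1326, 1280 and 1328 across the mutants, and after scaling Fielder replicate 3 lay within the range of the mutant libraries.

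The other genes that were not called are given for completeness, outside the rule for named genes. Between the first and the second group, TraesCS6B02G079400 had 36, 76 and 103 counts across Fielder, against 110, 88 and 83 across the mutants. TraesCS6B02G079500 had 168, 175 and 217 across Fielder, against 157, 114 and 142 across the mutants, and all mutant libraries lay below the Fielder ones after scaling. TraesCS6B02G079600 had 24, 33 and 50 across Fielder, against 48, 56 and 60 across the mutants. None of these changes reached the 2-fold limit. TraesCS6B02G079800 had 50, 63 and 72 across Fielder, against 76, 69 and 46 across the mutants, and TraesCS6B02G079900 had 206, 188 and 202 across Fielder, against 274, 248 and 242 across the mutants. TraesCS6B02G080300 had 34, 30 and 32 across Fielder, against 20, 7 and 9 across the mutants, the most negative log2 fold change among the tested genes of the stretch (-1.45, SE 0.59). That change was not called in edgeR or in DESeq2, although its groups did not overlap.

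TraesCS6B02G080700 was among the abundant genes, with 438, 521 and 593 counts across Fielder, against 553, 745 and 540 across the mutants. TraesCS6B02G080800, the longest gene of the stretch at an implied 4008 bases, had 130, 137 and 151 across Fielder, against 133, 100 and 152 across the mutants. TraesCS6B02G080900 had 50, 52 and 67 across Fielder, against 63, 51 and 85 across the mutants. The groups overlapped in all 3. TraesCS6B02G081000 had 15, 18 and 1 across Fielder, against 32, 12 and 17 across the mutants, and TraesCS6B02G081500 had 214, 169 and 155 across Fielder, against 101, 102 and 136 across the mutants, with a log2 fold change of -0.70 (SE 0.26). TraesCS6B02G081600, a short gene of 554 bases next to the second group, had 100, 165 and 400 across Fielder, against 412, 196 and 348 across the mutants. Its log2 fold change was 0.55 with all libraries and 1.17, and called, without Fielder replicate 3.

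Further along, TraesCS6B02G083500 had 9, 4 and 9 counts across Fielder, against 18, 15 and 22 across the mutants, with a log2 fold change of 1.28 that its SE of 0.69 kept from a call. TraesCS6B02G078100, at the start of the stretch, had 41, 32 and 64 across Fielder, against 48, 45 and 49 across the mutants. TraesCS6B02G085000 and TraesCS6B02G085100 were the short tested genes with a log2 fold change below 0. The former had 18, 9 and 26 counts across Fielder, against 14, 12 and 24 across the mutants, and the latter 15, 17 and 17 across Fielder, against 4, 13 and 9 across the mutants. TraesCS6B02G085800 had 33, 31 and 46 across Fielder, against 22, 16 and 14 across the mutants (log2 fold change -1.09, SE 0.49). The groups did not overlap in this gene, nor in TraesCS6B02G088400 with 25, 37 and 47 across Fielder, against 19, 18 and 19 across the mutants, but neither was called. TraesCS6B02G085900, TraesCS6B02G086000 and TraesCS6B02G087900 overlapped between the groups. TraesCS6B02G085900 had 22, 2 and 11 counts across Fielder, against 2, 14 and 4 across the mutants. TraesCS6B02G086000 had 142, 145 and 122 across Fielder, against 100, 96 and 136 across the mutants. TraesCS6B02G087900 had 0, 22 and 2 across Fielder, against 6, 20 and 21 across the mutants.

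The 16 genes that were not tested had at most 28 counts in any library, and their summed level was between 2.27 and 5.92 CPM per library. Besides TraesCS6B02G082300, they included TraesCS6B02G079300 with 0 counts in each Fielder library and 8, 1 and 1 in the mutant, and TraesCS6B02G086900 with 3, 1 and 8 in Fielder and 0 in each mutant library. TraesCS6B02G086800 had 14, 18 and 2 across Fielder, against 0, 0 and 4 across the mutants, and TraesCS6B02G081300 had 4, 1 and 4 across Fielder, against 13, 4 and 21 across the mutants. TraesCS6B02G083400 reached 15 counts in mutant replicate 2 only. The others were TraesCS6B02G080100, TraesCS6B02G081400, TraesCS6B02G083000, TraesCS6B02G083300, TraesCS6B02G083800, TraesCS6B02G084500, TraesCS6B02G085300, TraesCS6B02G085600, TraesCS6B02G087000 and TraesCS6B02G088700, with at most 15 counts in any library. At this depth a difference between the groups was not detectable in these others. In the stretch 0 genes had at most 3 counts in every library of one group and at least 10 in every library of the other.

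The genes called higher were mostly short. The choice of the stretch did not use length itself, but it used the fold change, which went with length over all tested genes. Length is therefore not independent of the choice, and the counts that follow describe the pattern without a test. The length that counts and FPKM imply had a median of 659 bases in the 19 genes called higher, with a range from 312 to 2043, whereas that of the 66 genes was 1158 and that of all listed genes 1609. With the limit of 900 bases, 16 of the 24 tested short genes of the stretch were called higher (66.7%) and 0 lower. Of the 26 tested longer genes, 3 were called higher (11.5%) and 2 lower, where 7.30% and 5.87% of all tested genes over 900 bases were called. Over all tested genes up to 900 bases, 12.6% were called higher, and on the rest of 6B 13.3% of the tested genes up to this length. The median log2 fold change was 1.24 in the short and 0.04 in the longer genes of the stretch, and 0.23 and -0.02 over all tested genes of these lengths.

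**Figure D3:**
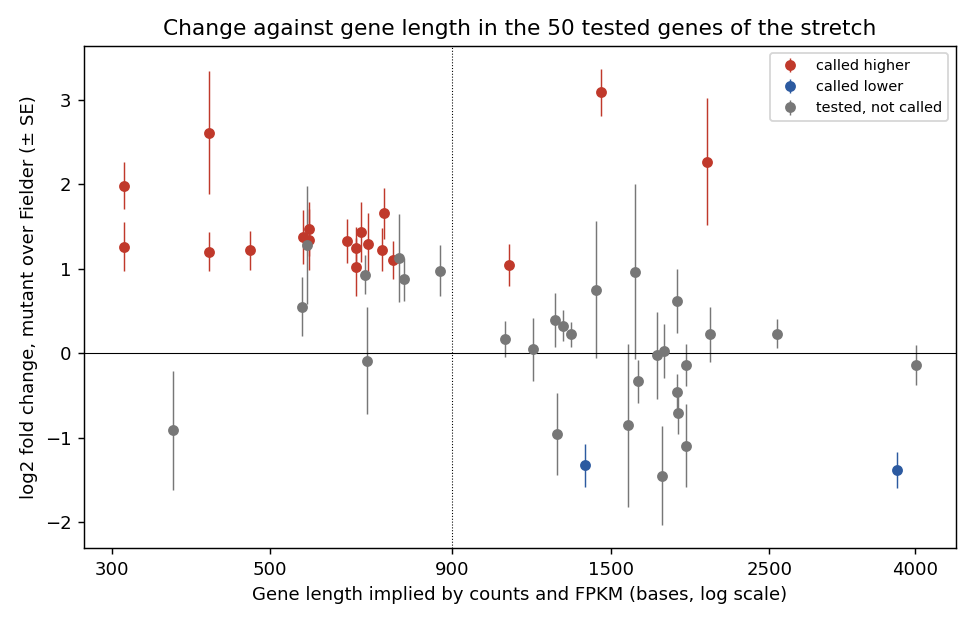
The log2 fold change (with its standard error) of the 50 tested genes of the stretch is plotted against the implied gene length on a log scale, with a dotted line at 900 bases. Of the 19 genes called higher, 16 lie between 312 and 742 bases, and the 3 others at 1081, 1452 and 2043 bases.

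The summed level set the short genes apart in the same way. The 28 listed genes of up to 900 bases summed to 246, 276 and 599.9 CPM in Fielder replicates 1, 2 and 3 and to 975, 786 and 848 CPM in mutant replicates 1, 2 and 3. The 38 longer genes summed to 252, 264 and 288 CPM in Fielder and to 276, 289 and 291 CPM in the mutant, a narrow range beside that of the short genes. All listed genes up to 900 bases also varied among the libraries, with 104479, 116897 and 141474 CPM in Fielder replicates 1, 2 and 3 and between 147993 and 152724 CPM in the mutant. After removal of each library's trend with length, an alternative chosen after seeing the data, 14 genes of the stretch and 7.07% of all tested genes were called higher. The calls of TraesCS6B02G082600, TraesCS6B02G084400, TraesCS6B02G084700, TraesCS6B02G084800 and TraesCS6B02G084900 were the 5 lost, with log2 fold changes between 0.83 and 0.996.

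**Figure D4:**
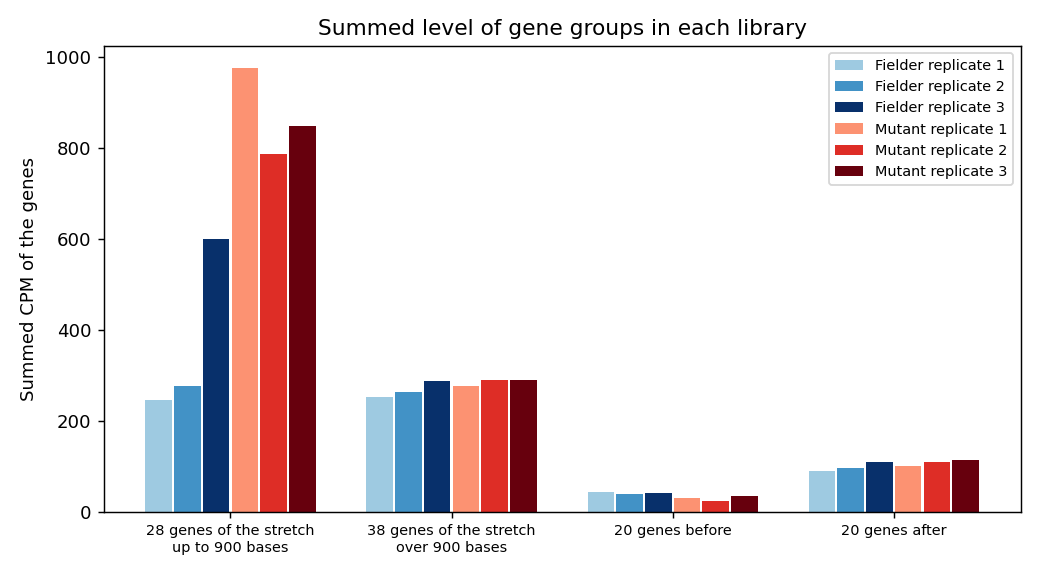
The bars give the summed CPM of 4 groups of genes in each of the 6 libraries, from 0. The short genes of the stretch rise from 246 CPM in Fielder replicate 1 through 599.9 CPM in Fielder replicate 3 to 975 CPM in mutant replicate 1, whereas the longer genes stay between 252 and 291 CPM.

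Some genes of the stretch share an implied length to the base. TraesCS6B02G081900 and TraesCS6B02G084100 both have 312 bases, TraesCS6B02G082000 and TraesCS6B02G084700 both have 411, and TraesCS6B02G079000 and TraesCS6B02G079200 both have 566, and all 6 were called higher. Their levels were nonetheless far apart within the pairs of 312 and 411 bases, at 80.2 and 177 FPKM in the mutant for the former and 4.18 and 112 FPKM for the latter. Within the pair of 566 bases they were closer, at 112 and 90.2 FPKM in the mutant. Without their sequences it was not tested whether reads were split between such genes, so that the values of these single genes are uncertain. The table lists 66 genes of 312 bases, 61 of 411 and 13 of 566. Outside the stretch, 6 of the 32 tested genes of 312 bases, 18 of the 39 of 411 bases and 1 of the 8 of 566 bases were called higher, with median log2 fold changes of 0.81, 1.08 and 0.38. Their level in Fielder replicate 3 was 1.70, 1.85 and 1.40 times the mean of the other Fielder libraries in the median gene, beside 2.06 for the short genes called higher in the stretch.

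None of the 25 tested flanking genes was called higher, beside 7.98% of all tested genes, so that their count is near the background. The borders of the stretch were set with these values in view, so the lack of such calls just outside them is only a description. Of the 20 genes before the stretch 13 were tested, with 0 called higher, 1 called lower and a median log2 fold change of -0.05. Of the 20 after it 12 were tested, with 0 called higher, 2 called lower and a median of -0.40. Directly outside the borders stood TraesCS6B02G077800, with 0, 8 and 0 counts across Fielder, against 0, 0 and 10 across the mutants, and TraesCS6B02G088900, whose counts are given above and whose log2 fold change was -2.15 (SE 0.66), a call that was lost without Fielder replicate 2 and without mutant replicate 1 or 2. TraesCS6B02G075200 had 71, 151 and 121 counts across Fielder, against 19, 0 and 41 across the mutants (log2 fold change -2.50, SE 0.67), and its call was lost without Fielder replicate 2 and in DESeq2. TraesCS6B02G090100 had 150, 104 and 169 across Fielder, against 77, 56 and 81 across the mutants, just past the 2-fold limit, and was not called without Fielder replicate 1, Fielder replicate 3 or mutant replicate 2. A short flanking gene of 459 bases, TraesCS6B02G090300, named after its values were seen, had 120, 183 and 289 counts across Fielder, against 363, 368 and 315 across the mutants, with a log2 fold change of 0.83 and a call without Fielder replicate 3.

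On the rest of chromosome 6B, 151 of 2066 tested genes were called higher (7.31%) and 130 lower (6.29%), and their median log2 fold change was -0.03. The identifiers do not pair genes across the subgenomes, so the 6A and 6D genes at the same share of the listed gene order were taken as a counterpart. This match by place alone can miss the corresponding genes. On 6A this was TraesCS6A02G065000 to TraesCS6A02G077100, where 4 of 44 tested genes were called higher and 3 lower. On 6D it was TraesCS6D02G061100 to TraesCS6D02G069600, where 7 of 45 were called higher and 2 lower. Of the tested genes up to 900 bases in these stretches, 1 of 6 on 6A and 3 of 9 on 6D were called higher. A run listed before this 6A stretch, from TraesCS6A02G055000 to TraesCS6A02G063400, had 11 of 43 tested genes called higher. Among its tested genes up to 900 bases it was 9 of 13, beside 12.6% of all tested genes of this length. That run was picked after the values were seen and is described under the other observations.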

How the data were processed

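RNA-seq libraries of axillary buds (3 Fielder, 3 mutant) were grouped by the sample labels. Clean reads had been mapped by the authors to the Ensembl Plants wheat reference, and they deposited the raw count of each gene. The aligner, the counter, any use of strand and the software versions are not given in the sources used here. The authors also deposited FPKM values, from which gene lengths were computed, since counts, library totals and FPKM of a gene imply a single whole-number length. The count of reads was tested with edgeR 4.0.16 in R 4.3.3 (filterByExpr, TMM, quasi-likelihood test over all 6 libraries, no covariates), with p-values adjusted by the Benjamini-Hochberg method over 52228 genes. The SE was the log2 fold change divided by the square root of F. DESeq2 1.42.0, other scalings and filters, the 2-fold test, the replicate block and leaving out each library were alternatives. The scripts were tested on simulated data. Depth ranged from 13320461 to 17174131 counts per library. The genes and lists were chosen with earlier results of these data known. Genes were named when called, at a border of the stretch, or among the 3 with the highest mean CPM. Other genes are marked in the text. Single-library counts carry counting error, which is largest in genes with few counts. Figures were made with matplotlib 3.10.9.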

Additional observations from a re-analysis of the deposited data

How the results depend on the processing

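The 19 genes of the stretch called higher became 2, and the 2 called lower became 0, when edgeR tested against a 2-fold threshold, and over all genes this test called 902 higher and 494 lower. It called 36 higher and 17 lower on the rest of 6B, 2 and 1 in the 6A stretch, 1 and 0 in the 6D stretch, and 0 lower in the flanks. With each library left out in turn, between 11 (without Fielder replicate 2) and 24 (without Fielder replicate 3) genes of the stretch were called higher and 2 lower in each. The flanks had between 0 and 1 called higher and between 1 and 3 lower, and the 6D stretch between 4 and 8 higher and between 1 and 3 lower. Over all genes between 3460 and 5054 were called higher and between 2615 and 3276 lower. RLE size factors, library size alone, DESeq2, no filter on low counts and a minimum of 10 counts in every library gave between 17 and 20 genes of the stretch called higher. Under these alternatives between 6.64% and 8.14% of all genes tested were called higher. Deviations of same-numbered libraries from their group means correlated at -0.03, 0.06 and 0.01 across genes, and not every library correlated best with its own number. These low values gave no clear sign of pairing by number, but they cannot show how the samples were collected or prepared. With the replicate block 21 genes of the stretch were called higher and 1 flanking gene lower, beside 8.23% and 5.61% of all tested genes. On the deposited FPKM the groups did not overlap for 23 genes of the stretch in the higher and 8 in the lower direction. The shares over all tested genes are at hand for CPM only, at 22.2% and 21.0%. The 26 tested genes named by the rule kept their direction under the alternatives run, whereas 8 other genes of the stretch, all not called and with log2 fold changes near 0 or few counts, changed sign with a library left out. Depth limits the 16 untested genes and the calls of TraesCS6B02G082000 and TraesCS6B02G082700.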

Other observations

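Short genes with a high Fielder replicate 3 also stood elsewhere, in runs that were picked after the values were seen and were not tested. On 6A, from TraesCS6A02G055000 to TraesCS6A02G063400, 9 of the 13 tested genes up to 900 bases were called higher, the median log2 fold change of the 13 was 1.21, and Fielder replicate 3 lay above the other Fielder libraries in 12 of the 13 and between these and all mutant libraries in 10. On 6D, from TraesCS6D02G061300 to TraesCS6D02G063300, 3 of the 8 tested genes up to 900 bases were called higher, that of the 8 was 0.99, and Fielder replicate 3 lay above the other Fielder libraries in all 8 and between these and all mutant libraries in 5. This run lies inside the 6D counterpart stretch, so that its 3 calls are those given there. Over all tested genes up to 900 bases, 12.6% were called higher. With genes of every length, 11 of the 43 tested genes of the 6A run and 3 of the 11 of the 6D run were called higher, beside 7.98% of all tested genes. In the median gene up to 900 bases of these runs the level in Fielder replicate 3 was 2.51 and 1.85 times the mean of the other Fielder libraries.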
